A study of Mus musculus with 10 samples.

Results

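Immunoglobulin (Ig) genes were followed in single-cell libraries from SW1 melanomas of mice that drank control water or water with L-fucose (L-fuc). They were taken by symbol, as all genes beginning with Ighv, Igkv or Iglv, together with the constant genes Igkc, Ighm, Ighd, Ighg1, Ighg2b, Ighg2c, Ighg3, Igha and Ighe, and Jchain. The rule found 358 of the 32285 genes in the count matrices. They comprised 185 Ighv genes and 8 heavy chain constant genes on chromosome 12, 160 Igkv genes and Igkc on chromosome 6, 3 Iglv genes on chromosome 16 and Jchain on chromosome 5. At least 1 unique molecular identifier (UMI, the tag of 1 captured RNA molecule) was found for 250 of them. Of the 348 variable (V) segments, 240 had a UMI, and 201 of the 216 annotated as functional held 97.7% of V UMIs, whereas 38 of 130 pseudogenes held 2.34%.

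An antibody is built of paired heavy and light chains. Each B cell joins 1 heavy chain V segment and 1 light chain V segment, kappa or lambda, to smaller segments and a constant region. A B cell and its descendants thus share one V pair, but unrelated B cells can use the same pair. Naive B cells carry IgM and IgD. After activation the heavy chain can switch to IgG, IgA or IgE, and plasma cells devote much of their RNA to a single antibody. The J chain, encoded by Jchain, links IgM and IgA into polymers.

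SW1 is a melanoma line that grows in C3H/HeJ mice, which were female and 4 to 6 weeks old and carried subcutaneous tumors for 10 days before treatment per the labels, while the methods text of the study gives another interval. The 5 groups were a pretreatment cohort at day 0, labelled as control, and cohorts at day 7 and day 21 on control water or on L-fuc water. The L-fuc concentration is 100 mM in the treatment protocol but 100 nM in the extraction protocol. The former gives 5 mice per arm, and the latter 6 per arm and 3 for day 0. Tumors of a cohort were pooled into 1 10x Genomics gene expression library and 1 T cell receptor library, so there were no replicates and no test between conditions was possible. Intervals (95%) cover counting error only, which for UMIs that come from a few barcodes is far smaller than the variation between animals can be.

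The libraries held 1725 barcodes at control day 0, 20741 at control day 7, 15288 at L-fuc day 7, 2754 at control day 21 and 1428 at L-fuc day 21, the order used for all series of 5 values here, and 14439185 to 119047810 UMIs. The samples are labelled as CD45+ sorted. However, 9137 of 19296 filtered barcodes at control day 7 had the tumor transcript Sox10 and no UMI of Ptprc, which encodes CD45. Pairs of libraries shared 3 to 433 barcode sequences, at most 3.12% of a library, and no barcode rich in Ig UMIs was rich in both libraries of a pair.

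Ig transcripts took very different shares of the libraries. Over all deposited barcodes there were 53066, 101431, 295440, 235006 and 821215 Ig UMIs. These equal 3675 (95% interval 3644 to 3707), 852 (847 to 857), 3320 (3308 to 3332), 10816 (10773 to 10860) and 49501 (49394 to 49608) Ig UMIs per 1000000 UMIs of the library (counts per 1000000, CPM). Thus the L-fuc library was higher than the control library of the same day at both days, and L-fuc day 21 was the highest of the 5.

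The study's cell filters bore heavily on these genes. A barcode was kept if it had 200 or more genes, a mitochondrial share of UMIs no higher than 10%, and a complexity (log10 of genes divided by log10 of UMIs) of 0.8 or more. A barcode that spends its UMIs on a single antibody has few genes for its depth. The filters removed 14.1% of barcodes but 72.0% of Ig UMIs. Per library they removed 70.9%, 21.0%, 50.8%, 92.8% and 80% of Ig UMIs, beside 2.98%, 2.52%, 6.31%, 7.95% and 17.5% of all UMIs. Complexity alone accounted for 70.8%, 20%, 49.2%, 92.1% and 79.8%. After filtering, the level was 1102, 690, 1743, 844 and 11989 CPM. Both sets are given below, since control day 21 went from the second highest to the second lowest level between them.

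**Figure D1:**
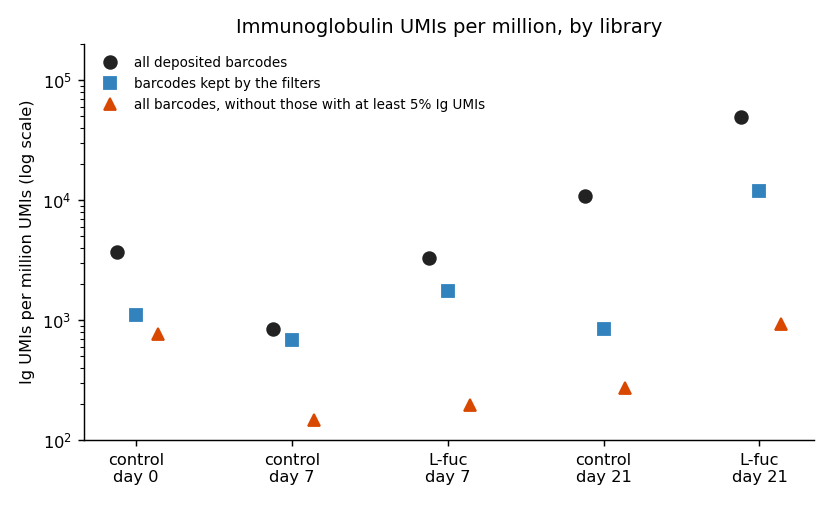
Ig UMIs per 1000000 UMIs (CPM, log scale) in the 5 libraries, for all deposited barcodes (circles), for those kept by the filters (squares) and for all barcodes without those in which Ig genes hold at least 5% of UMIs (triangles). L-fuc day 21 is highest for each of the 3 symbols, and control day 21 stands at 10816 over all barcodes and 844 with the filters.

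The first question of the design was how L-fuc differed from control. At day 7 the ratio of Ig CPM, L-fuc over control, was 2.52 (2.5 to 2.55) after filtering and 3.9 (3.87 to 3.92) over all barcodes. At day 21 it was 14.2 (14 to 14.4) after filtering and 4.58 (4.56 to 4.60) over all barcodes. Without barcodes holding at least 5% Ig UMIs, the filtered ratio was 1.21 at day 7 and 3.94 at day 21. Without the single top barcode of each filtered library it was 2.36 at day 7 and 28.7 at day 21, where the control barcode left out held 9297 of 16888 Ig UMIs. Over time in controls, day 7 over day 0 was 0.626 (0.616 to 0.637) after filtering and 0.232 over all barcodes. Day 21 over day 7 was 1.22 (1.20 to 1.24) after filtering, 12.7 over all barcodes, and 0.608 when the single barcode with the most Ig UMIs was left out of each filtered library. Fewer cells of a type and less RNA per cell cannot be told apart in such sums. Nor can the condition and the pool be told apart with 1 library each.

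The chain classes were unevenly represented. Igkv segments held 37.6%, 51.2%, 47.0%, 52.1% and 51.3% of Ig UMIs over all barcodes, and Ighv segments 16.2%, 10.8%, 24.3%, 33.7% and 27.1%. Iglv segments held 28.6% at day 0 and 0.666% to 3.41% elsewhere. The day 0 share came mainly from 1 barcode with 12422 of the 12436 Iglv2 UMIs. For each UMI of Igkc, the kappa constant gene, there were 9.27, 3.58, 5.02, 13.4 and 8.42 UMIs of Igkv segments. Variable and constant parts belong to the same mRNA, so these ratios show that the 2 parts were not counted in equal measure. They are levels per gene and were not corrected for length or for position along the transcript.

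Ig UMIs were concentrated in very few barcodes. The top barcode held 41.0%, 11.6%, 8.21%, 16.1% and 5.01% of all Ig UMIs of its library (21733, 11737, 24249, 37898 and 41127 UMIs). Just 2, 8, 9, 4 and 15 barcodes held 50% of them. After filtering, the top barcode held 28.5% (27.8 to 29.2), 9.39% (9.19 to 9.59), 15.3% (15.2 to 15.5), 55.1% (54.3 to 55.8) and 9.40% (9.26 to 9.55). Hence 1 barcode made up most of the filtered signal at control day 21. At filtered control day 0, in contrast, 24 barcodes were needed to reach 50%.

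**Figure D2:**
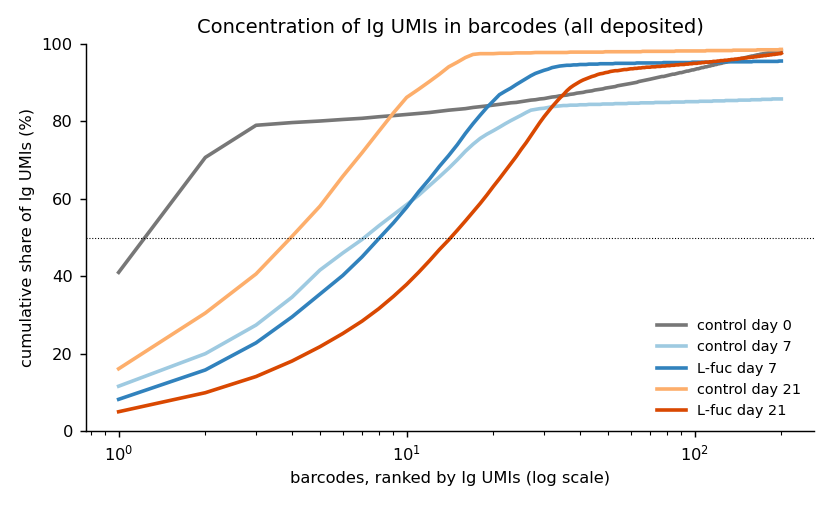
Cumulative share of Ig UMIs (%, vertical axis) over barcodes ranked by Ig UMIs (log scale, horizontal axis), all deposited barcodes, 1 line per library. The dotted line marks 50%, which is reached by 2 barcodes at control day 0 and 15 at L-fuc day 21.

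V segments were more concentrated than constant genes. Among V segments with at least 100 UMIs in a library, the median share of a segment's UMIs in its top barcode was 37.1%, 76.5%, 88.5%, 99.6% and 88.5%. For constant genes and Jchain it was 22.8%, 27.1%, 24.8%, 19.3% and 14.6%. A difference in a V segment between libraries was therefore often a difference in 1 barcode.

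To describe these barcodes, those in which Ig genes held at least 5% of UMIs were taken as Ig-rich. There were 3, 30, 38, 20 and 249, or 340 in all, and they held 79.0%, 82.7%, 94.2%, 97.5% and 98.4% of Ig UMIs. The share is a range and not a cell type. The lowest share inside the limit was 5.08% to 15% per library and the highest outside was 3.26% to 4.54%. The filters removed 69 of the 340, 60 of them by complexity alone. Median complexity of Ig-rich barcodes was 0.768, 0.843, 0.822, 0.777 and 0.897.

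Most Ig-rich barcodes other than those of L-fuc day 21 carried a single light chain. One light chain V segment held at least 80% of light chain V UMIs in 3 of 3, 29 of 30, 33 of 38, 19 of 20 and 60 of 249 Ig-rich barcodes. Those 144 barcodes held 85.2% of all Ig UMIs of the series. Of the 340, 118 were deep, with at least 5000 UMIs, and counted 3, 22, 30, 15 and 48 per library. These equal 0.174% (0.0359 to 0.507), 0.106% (0.0665 to 0.161), 0.196% (0.132 to 0.280), 0.545% (0.305 to 0.897) and 3.36% (2.49 to 4.43) of the library's barcodes. The filters removed 58 of the 118.

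**Figure D3:**
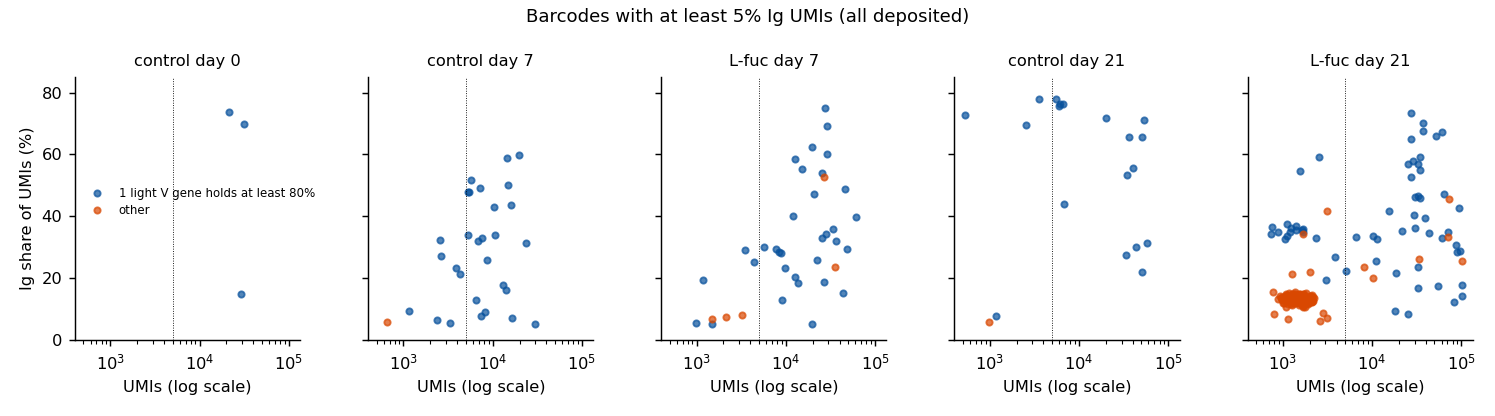
Ig share of UMIs (%, vertical axis) against UMIs (log scale, horizontal axis) for each Ig-rich barcode, 1 panel per library, all deposited barcodes. Blue barcodes have 1 light chain V segment with at least 80% of at least 20 light chain V UMIs, orange barcodes do not, and the dotted line marks 5000 UMIs. At L-fuc day 21 a dense orange group lies near 13.2% Ig UMIs, and most barcodes right of the line are blue in every panel.

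Deep Ig-rich barcodes carried the transcripts of antibody secretion. Ig genes took a median of 34.9% of their UMIs, up to 77.8%, and Jchain was found in all 118. Both values follow partly from the choice of these barcodes, since the Ig share that defined them counts Jchain. Mzb1, an endoplasmic reticulum chaperone of antibody-making cells, stood at 4151 CPM in them, beside 7.17 to 183 CPM in the filtered libraries as a whole. Xbp1, a transcription factor for secretion, stood at 1315 beside 95.7 to 172, and Derl3, a protein of endoplasmic reticulum quality control, at 224 beside 0.586 to 12.9. Tnfrsf17, the BCMA receptor of plasma cells, stood at 37.6 beside 0.0714 to 0.512. The antibody-secretion markers fixed for cell naming (Sdc1, Xbp1, Mzb1, Prdm1, Derl3, Fkbp11 and Tnfrsf17) together reached at least 3 UMIs in all 118. Of all Ig-rich barcodes, 136 of the 144 with a single light chain and 171 of the other 196 reached it too. In the 222 Ig-rich barcodes below 5000 UMIs, Mzb1 stood at 2313 CPM and Xbp1 at 745. Reaching 3 UMIs thus does not set the deep barcodes apart from other Ig-rich ones.

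Some genes of resting B cells were lower in the same barcodes than in the filtered control day 0 library. Pax5, which maintains B cell identity, stood at 0.557 CPM in deep Ig-rich barcodes and at 9.07 in the filtered control day 0 library, where it was highest. Fcer2a, the low-affinity IgE receptor, stood at 0.279 beside 33.3, and Ms4a1 (CD20) at 29.8 beside 48.1. In the other filtered libraries Pax5 ran from 0.138 to 0.658 CPM and Ms4a1 from 0.586 to 10.6. Cd79a and Vpreb3, also of the B lineage, stood at 376 in the deep Ig-rich barcodes beside 189 in that day 0 library, and at 57.1 beside 19.4. A library level is taken over barcodes of all cell types and is not the level in B cells. None of these values thus shows whether deep Ig-rich barcodes were higher or lower than B cells. Deep Ig-rich barcodes also held other lineages' transcripts. In 20 of 118 there were at least 2 UMIs of Cd3 genes and in 15 a UMI of Sox10, and the part of doublets or free RNA in this was not tested.

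In several libraries one heavy and light pair led more than 1 barcode. V segments with close relatives are uncertain here, because the reference is the C57BL/6 genome (mm10) while the mice are C3H/HeJ, and the counting can split one rearranged chain over similar genes. Of 116 barcodes with at least 100 heavy chain V UMIs and one light chain, 47 had a second heavy V segment with at least 10% of them, always of the family of the first. Only 2 had such a second light V segment, but the choice of barcodes with one light chain left little room for it. The heavy and light counts thus cannot be compared. Segment names below are those to which the reads were assigned.

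At control day 7 the pair Ighv11-1 and Igkv14-126 led 6 Ig-rich barcodes, all with Ighm as their leading constant gene. Light chains of Igkv14-126 with heavy chains of the Ighv11 family are known from innate-like B cells that bind phosphatidylcholine. The 6 barcodes held 7050, 4459, 3602, 2311, 1786 and 155 Ig UMIs, of 16105, 10390, 10636, 12942, 5241 and 2378 UMIs. Igkv14-126 made up 97.5% to 99.9% of their light chain V UMIs. The same pair led 1 barcode each at L-fuc day 7 (4816 Ig UMIs), control day 21 (91) and L-fuc day 21 (1491), all with Ighm, and none at day 0. It was the only pair that led barcodes in 4 of the 5 libraries. Igkv14-126 had 39, 15266, 2343, 49 and 1043 UMIs over all barcodes, and at control day 7 it was counted in 1169 barcodes, of which 1 held 35.6%.

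The heavy chain of these barcodes was divided between close relatives. In the deepest of them Ighv11-1 had 296 UMIs and Ighv11-2 had 159, and over all barcodes of control day 7 they had 615 and 370. The coding V exons of the reference are shown to let the 2 be compared. They are given 5′ to 3′ on the minus strand of GRCm38/mm10, without the first 11 bases of the exon. Capitals mark the 4 of 296 bases that differ, an identity of 98.6%. Ighv11-1 lies at chr12:113981879-113982174 and Ighv11-2 at chr12:114048241-114048536.
Ighv11-1: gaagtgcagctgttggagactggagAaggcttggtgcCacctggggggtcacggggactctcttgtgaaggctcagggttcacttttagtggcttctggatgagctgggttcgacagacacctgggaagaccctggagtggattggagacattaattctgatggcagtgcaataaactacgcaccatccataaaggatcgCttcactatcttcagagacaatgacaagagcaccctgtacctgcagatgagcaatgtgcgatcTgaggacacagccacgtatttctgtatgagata
Ighv11-2: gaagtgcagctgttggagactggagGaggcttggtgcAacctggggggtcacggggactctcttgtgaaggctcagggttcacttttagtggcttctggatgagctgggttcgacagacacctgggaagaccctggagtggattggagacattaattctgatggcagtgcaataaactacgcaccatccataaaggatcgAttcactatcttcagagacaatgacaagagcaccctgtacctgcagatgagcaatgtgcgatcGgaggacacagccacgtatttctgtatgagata
In 47 barcodes with a second heavy segment, there were 26 different pairs of first and second segment. Exon identity, available for 24 of the pairs and counted with gaps allowed, was 83.2% to 100% with a median of 94.8%. Counted base by base without gaps, the median over 1893 functional Ighv pairs of equal length, of any family, was 83.3%. The 2 medians differ in measure and in set, so they cannot be compared directly.

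At L-fuc day 21 the pair Ighv1-82 and Igkv12-44 led 8 Ighg1 barcodes. They held 34000, 28015, 26488, 26037, 20053, 15117, 12010 and 853 Ig UMIs, or 162573 together. The pair also led a barcode of 24788 Ig UMIs with Ighg2c and a barcode of 66 Ig UMIs with too few constant UMIs for an isotype. In the 8, Ighv1-82 held 96.2% to 99.4% of heavy V UMIs and Igkv12-44 held 98.5% to 99.7% of light V UMIs. Igkv12-44 was the V segment with the most UMIs of the series, with 76, 5, 1, 0 and 109349 per library, so that 99.9% came from L-fuc day 21. Ighv1-82 was second with 99, 3, 4596, 14284 and 79683. It led 18 deep barcodes, 14 of them at L-fuc day 21. Since the filters kept 2 of the 8, Igkv12-44 fell behind 8 other V segments in the filtered libraries.

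At control day 21 the pair Ighv3-8 and Igkv15-103 led 7 Igha barcodes. Their depth ran from 525 to 6665 UMIs, while the Ig share stayed between 69.4% and 77.9%. Ighv3-8 held 99.5% to 100% of heavy V UMIs and Igkv15-103 held 97.1% to 99.3% of light V UMIs. The filters kept none of the 7. Ighv3-8 accordingly had 14871 UMIs over all barcodes and 42 after filtering. At control day 7 Igkv15-103 led 4 Igha barcodes with another heavy segment, Ighv1-14, which held 5797 Ig UMIs.

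At L-fuc day 7, Ighv8-8 with Igkv10-96 led 4 Ighg1 barcodes (22742 Ig UMIs) and Ighv3-6 with Igkv16-104 led 2 Igha barcodes (42103). At L-fuc day 21, Ighv1-62 with Igkv3-4 led 4 Ighg2c barcodes (38884). There, Ighv14-4 with Iglv2, a lambda segment, led 14 shallow Ighm barcodes of 731 to 2369 UMIs, in which Ig genes held 32.7% to 37.6% (6427 Ig UMIs). Without the demand for one light chain, 15 barcodes were led by Iglv2, all with Ighv14-4 and with Igkv8-16 as second light segment. Iglv2 held 76.8% to 95.1% of their light V UMIs, and Ptprc was found in 4 of them. The part of free RNA in these barcodes was not tested. In all, 3, 19, 22, 13 and 32 different pairs led barcodes of the 5 libraries. Libraries of different days or treatments shared at most 4 of them.

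A further group at L-fuc day 21 had no single light chain. In 172 Ig-rich barcodes Igkv12-89 led the light chain V UMIs with a median of 53.0%, Igkv4-55 was second in all 172, and Ighv6-6 led the heavy chain in all 172. They made up 12% of the library's barcodes, had 881 to 3131 UMIs and gave Ig genes a median of 13.2% (7.15% to 15.4%). The filters kept 171. The group held 4.31% of the library's Ig UMIs over all barcodes and 21.4% after filtering. Without it the filtered ratio of L-fuc to control at day 21 was 11.4 in place of 14.2.

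The 172 barcodes were chosen for their leading light chain, so their likeness over the Ig genes is a description. Over these genes, the cosine between one barcode and the sum of the others was at least 0.964 with a median of 0.989, against a median of 0.173 for the 48 deep Ig-rich barcodes of that library, which carried many V pairs. No barcode outside the group held more than 43 UMIs of Igkv12-89, and controls had 48, 0 and 2. Pairs of their barcode sequences differed at a median of 12 bases, as did pairs among 172 other barcodes of the library. At least 1 UMI of the macrophage complement genes C1qa, C1qb or C1qc was found in 171 and Ptprc in 53. Gm42418, a gene that overlaps ribosomal RNA, stood at 98868 CPM in them against 30074 outside Ig-rich barcodes, and Lars2 at 12418 against 2795. The part of free RNA in this group was not tested.

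Igkv12-44, which led 10 Ig-rich barcodes at L-fuc day 21, and Igkv12-89, which led the group of 172, belong to one family. Their exons are shown to see whether reads could be mistaken. Both lie on the minus strand of GRCm38/mm10, Igkv12-44 at chr6:69814631-69814928 and Igkv12-89 at chr6:68834846-68835143. Capitals mark 46 differences in 298 bases, an identity of 84.6%.
Igkv12-44: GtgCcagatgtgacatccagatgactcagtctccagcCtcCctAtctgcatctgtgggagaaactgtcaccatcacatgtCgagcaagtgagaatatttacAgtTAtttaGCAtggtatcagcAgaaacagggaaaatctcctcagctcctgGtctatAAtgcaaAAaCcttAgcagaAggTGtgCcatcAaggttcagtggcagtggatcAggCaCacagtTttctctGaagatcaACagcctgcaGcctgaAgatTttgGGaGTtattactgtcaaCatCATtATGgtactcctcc
Igkv12-89: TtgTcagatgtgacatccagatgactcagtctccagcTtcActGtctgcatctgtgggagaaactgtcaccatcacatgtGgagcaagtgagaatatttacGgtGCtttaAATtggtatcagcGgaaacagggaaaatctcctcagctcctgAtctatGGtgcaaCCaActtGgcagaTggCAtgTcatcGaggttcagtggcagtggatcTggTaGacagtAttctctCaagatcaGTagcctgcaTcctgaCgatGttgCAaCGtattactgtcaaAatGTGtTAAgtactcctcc

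Isotypes differed between libraries, and the leading one depended on the filters. Over all barcodes the heavy chain constant UMIs were led by Ighm at control day 0 (72.2%, 70.7 to 73.6), Igha at control day 7 (42.1%, 41.3 to 42.8) and at L-fuc day 7 (53.9%, 53.4 to 54.4), Ighg2c at control day 21 (49.3%, 48.4 to 50.2) and Ighg1 at L-fuc day 21 (44.6%, 44.2 to 45.0). After filtering they were led by Ighm (57.0%), Igha (49.1%), Igha (47.5%), Ighm (45.4%) and Ighg1 (39.6%). The switch at control day 21 from Ighg2c to Ighm followed the removal of Ighg2c barcodes, since filtering took Ighg2c from 5928 to 473 UMIs and Ighm only from 1309 to 1231.

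IgG genes together (Ighg1, Ighg2b, Ighg2c and Ighg3) held 13.8%, 21.0%, 32.0%, 60.7% and 68.7% of heavy constant UMIs over all barcodes, and 21.0%, 8.58%, 36.5%, 27.6% and 61.7% after filtering. On both counts the L-fuc library had a larger IgG share than the control library of its day. Ighe, the IgE gene, had 0, 0, 8, 0 and 33 UMIs over all barcodes. At L-fuc day 21, 28 of the 33 were in 1 barcode, and at L-fuc day 7, 7 of the 8. A count of 0 allows a level of up to 3 UMIs in that library.

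**Figure D4:**
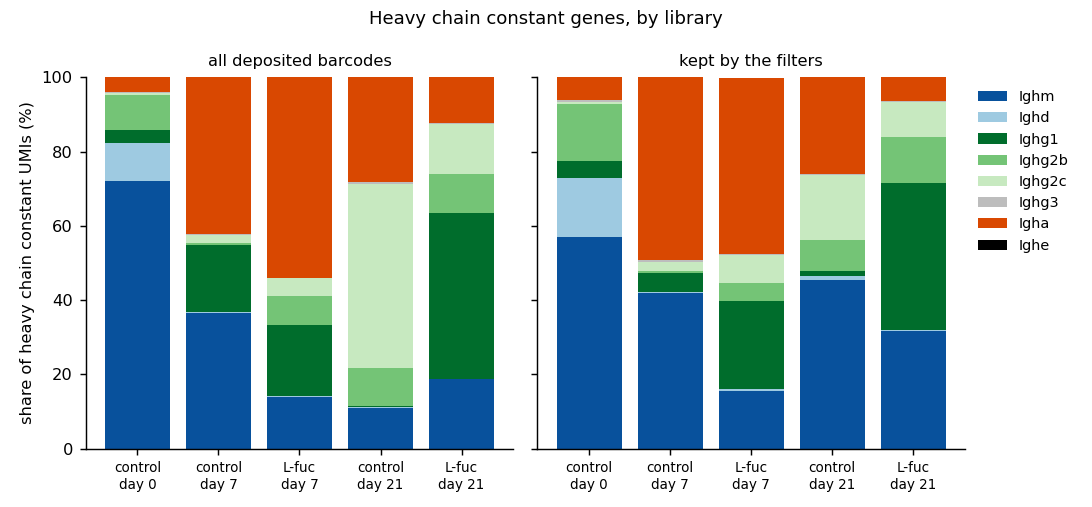
Share of heavy chain constant UMIs (%) by gene, stacked for each library, over all deposited barcodes (left) and those kept by the filters (right). Ighm leads at control day 0 in both panels, Igha at both day 7 libraries, and Ighg1 at L-fuc day 21, whereas control day 21 changes from 49.3% Ighg2c to 45.4% Ighm.

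Among the constant genes with UMIs in both libraries, Ighg1 showed the widest gap between the treatments at day 21. It had 134, 3002, 6977, 51 and 29887 UMIs over all barcodes, and 109, 702, 5321, 36 and 7881 after filtering. The ratio of L-fuc to control was 10.6 (9.75 to 11.4) at day 7 and 320 (231 to 457) at day 21 after filtering, and 3.11 and 767 over all barcodes. At L-fuc day 21 no single barcode held most Ighg1 UMIs, the top barcode holding 11% and 74 barcodes being led by Ighg1. Of the 74, 19 were deep Ig-rich and 8 shared one V pair. Deep Ig-rich barcodes held 25917 of the 29887 UMIs, and the group of 172 barcodes without a single light chain held 1736. Barcodes that share a V pair or a profile are not independent, so the 74 are not a count of separate B cell lineages. No barcode with at least 5 heavy constant UMIs was led by Ighg1 at control day 21. At control day 7 the top barcode held 48.2%.

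After filtering the other heavy constant genes were higher in L-fuc at day 21, but not all of them at day 7. At day 7, filtered ratios of L-fuc to control were 16 for Ighg2b, 6.56 for Ighg2c, 2.11 for Igha, 1.57 for Ighd, 0.816 for Ighm and 0.597 for Ighg3. Over all barcodes the Ighg2b ratio was 35.7, with 58.6% of its L-fuc UMIs in 1 barcode, and the Ighm ratio was 1.10. At day 21 the filtered ratios were 15.7 for Ighg2b, 7.48 for Ighm, 5.82 for Ighg2c, 5.68 for Ighg3, 2.64 for Igha and 2.35 for Ighd. Over all barcodes the day 21 ratios were 12.6 for Ighm, 7.47 for Ighg2b, 3.21 for Igha, 2.43 for Ighd and 2 for Ighg2c, and that of Ighg3, at 1.24 (0.878 to 1.74), was not clear of 1. Igkc followed the filtered totals, at 2.48 and 14.1 (7.17 over all barcodes at day 21), and Jchain stood at 2.31 and 4.93.

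In controls over time, Ighd, the mark of naive B cells, was lower at day 7, by a factor of 46.5, than at day 0 after filtering (69 against 387 UMIs, 0.595 against 27.6 CPM). Ighm was 1.91-fold lower and Igha 5.86-fold higher. There were 3.56 UMIs of Ighm for each UMI of Ighd at day 0, and 86.8, 45.0, 44.0 and 140 in the other 4 libraries. From control day 7 to control day 21, Ighg2c was 7.65-fold higher after filtering and 89.5-fold higher over all barcodes. At control day 21, 1 barcode held 404 of the 473 filtered Ighg2c UMIs, whereas over all barcodes the top barcode held 22.7%.

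Counted by barcode instead of by UMI, Ighm led in every library. Among barcodes with at least 5 heavy constant UMIs after filtering, Ighm led 108 of 155, 35 of 67, 95 of 139, 82 of 94 and 200 of 275. The Igkv12-89 group carried most of the count at L-fuc day 21, with 131 of the 211 barcodes led by Ighm before filtering. Among the deep Ig-rich barcodes Ighm did not lead in every library. Those were led by Ighm in 2 and Ighg2b in 1 at control day 0. At control day 7 they were led by Igha in 9, Ighm in 8, Ighg1 in 3 and Ighg2c in 2. At L-fuc day 7 the leaders were Igha in 17, Ighg1 in 6, Ighg2c in 4, Ighm in 2 and Ighg2b in 1. At control day 21 they were Igha in 8 and Ighg2c in 7. At L-fuc day 21 they were Ighg1 in 19, Ighg2c in 12, Igha in 7, Ighm in 6 and Ighg2b in 4.

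One constant gene carried a trace of a second. In 24 Ig-rich barcodes led by Ighg2c with enough UMIs to compare, Ighg2b held 5.17% to 23.6% of heavy constant UMIs with a median of 16.9%. Its highest share was 3.64% in 44 barcodes led by Igha, 9.45% in 32 led by Ighg1 and 0.0734% in 31 led by Ighm. Mouse strains differ in this gene, C57BL/6 carrying Ighg2c and other strains Ighg2a in its place, so reads assigned to Ighg2c and Ighg2b in C3H/HeJ libraries are uncertain. The part of the strain in this mixture was not tested.

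Jchain differed with the isotype of the barcode. Its share of UMIs in deep Ig-rich barcodes had a median of 2.40% in 59 barcodes led by Ighm or Igha and 0.604% in 59 led by IgG genes. By gene, the median was 1.71% for Ighm (0.155 to 6.07, 18 barcodes), 2.5% for Igha (0.213 to 7.71, 41), 0.685% for Ighg1 (0.0290 to 5.12, 28), 0.323% for Ighg2b (0.0477 to 0.811, 6) and 0.604% for Ighg2c (0.0681 to 3.72, 25). The ranges overlapped, and barcodes of 1 pool that share a V pair are not independent. Jchain itself had 3348, 5840, 18879, 9610 and 32247 UMIs over all barcodes, and at day 0 1 barcode held 56.3% of them.

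**Figure D5:**
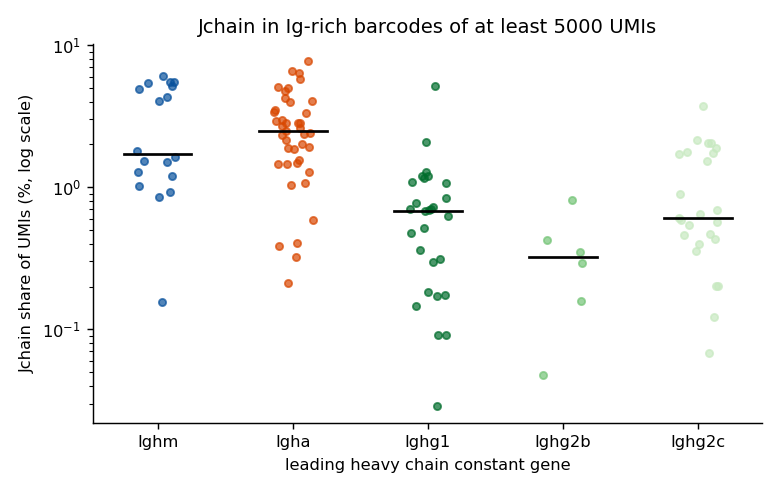
Jchain share of UMIs (%, log scale) in the 118 Ig-rich barcodes with at least 5000 UMIs, by leading heavy chain constant gene, all libraries together. Points are barcodes and bars are medians, which run from 0.323% (Ighg2b) to 2.5% (Igha).

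The breadth of V segments differed less than their level. After filtering 163, 140, 150, 88 and 156 V segments had a UMI, and 130, 101, 120, 50 and 122 had at least 3. With every library thinned to 13683269 UMIs the numbers were 163, 81, 110, 79 and 156. Control day 0, with 15442 Ig UMIs, thus had more V segments than control day 7 with 80125. Over all barcodes 168, 142, 165, 139 and 201 had a UMI. With at least 3 UMIs, 44 segments occurred in all 5 libraries and 141 in none.

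The Ighv1 family, which holds 93 of the 185 Ighv genes (50.3%), had 12.6%, 78.4%, 33.4%, 41.0% and 60.1% of Ighv UMIs over all barcodes and led all libraries except control day 0. Ighv2 led there with 52.3%, and 1 barcode led by Ighv2-7 and Iglv2 had 4283 of the 8597 Ighv UMIs. Ighv3 had 30% at L-fuc day 7 and 18.8% at control day 21. After filtering, Ighv1 led at control day 0 too (55.2%, beside 11% for Ighv2), whereas Ighv3 led at L-fuc day 7 (36.6%, beside 21.2% for Ighv1). Among kappa families over all barcodes, Igkv1 led at control day 0 (61.3%), Igkv14 at control day 7 (29.4%), Igkv3 at L-fuc day 7 (23.6%), Igkv4 at control day 21 (32.9%) and Igkv12 at L-fuc day 21 (29.9%). After filtering the leader was another at control day 0 (Igkv6, 47.3%), L-fuc day 7 (Igkv10, 21.5%) and control day 21 (Igkv19, 60.9%).

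The V segment with the most UMIs differed in every library. In the filtered libraries the leaders were Igkv6-32 at control day 0 (3391 UMIs, 96.7% in 1 barcode), Igkv14-126 at control day 7 (15102, 36.0%), Igkv10-96 at L-fuc day 7 (12984, 38.4%), Igkv19-93 at control day 21 (5354, 99.9%) and Igkv12-89 at L-fuc day 21 (10545, 0.996%). Thus 1 barcode held nearly all UMIs of the leader at control day 0 and control day 21, whereas Igkv12-89 was spread over 180 barcodes. Igkv14-126 was counted in 1095 barcodes, but 1 of them held 36.0% of its UMIs. Over all barcodes the 10 leading segments were Igkv12-44, Ighv1-82, Igkv3-4, Igkv1-135, Igkv3-7, Igkv1-110, Igkv10-96, Iglv1, Igkv8-30 and Ighv6-3, with 109431 down to 28668 UMIs. L-fuc day 21 held the largest share of 8 of the 10, and L-fuc day 7 that of Igkv3-7 and Igkv10-96.

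V segments share a promoter element, the octamer ATGCAAAT, which binds the factors OCT1 and OCT2. It was searched in 300 bases around the annotated start of each V gene (250 before to 50 after, GRCm38/mm10 with GENCODE M21 starts) on both strands. Among functional genes, 91 of 113 Ighv genes (80.5%) held it in the direction of transcription and 0 in the opposite direction. Of 100 Igkv genes, 73 (73.0%) held it as ATTTGCAT, the opposite direction, 2 of them in both, and 3 of 3 Iglv genes held it as ATTTGCAT. Of 130 V pseudogenes, 58 (44.6%) held it in either direction. Among 32851 promoters of the RefSeq table of the same length, 570 (1.74%) did. The median distance to the start was 107 bases for Ighv and 92.0 for Igkv. Most functional genes had a UMI with or without the motif, namely 84 of 91 Ighv genes with it and 19 of 22 without it, and 69 of 73 and 26 of 27 Igkv genes. With so many detected in each group, detection could hardly separate by the motif. The median UMIs per gene were 338 with it and 136 without it for Ighv, but 425 and 2057 for Igkv.

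Promoter stretches of some segments described above show the element, in capitals, in its 2 directions, each with 20 bases on either side and written in the direction of transcription.
Ighv11-1, chr12:113982422-113982469, minus strand: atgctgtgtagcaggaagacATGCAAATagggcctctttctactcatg
Igkv14-126, chr6:67896066-67896113, plus strand: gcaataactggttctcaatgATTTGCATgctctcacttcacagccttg
Ighv1-82, chr12:115953050-115953097, minus strand: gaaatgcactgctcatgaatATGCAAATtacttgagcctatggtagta
Igkv12-44, chr6:69815173-69815220, minus strand: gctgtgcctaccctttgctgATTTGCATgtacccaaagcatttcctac
Ighv3-8, chr12:114322882-114322929, minus strand: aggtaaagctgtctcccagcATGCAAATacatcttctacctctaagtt
Igkv15-103, chr6:68437349-68437396, plus strand: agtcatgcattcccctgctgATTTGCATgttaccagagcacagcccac
Iglv2, chr16:19260922-19260969, minus strand: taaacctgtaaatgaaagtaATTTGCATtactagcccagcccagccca
The heavy chain segments shown have the element in one direction and the kappa and lambda segments shown in the other. Ighv14-4, the heavy partner of Iglv2, had it in neither direction in its window. A match is a description of these letters and no evidence of binding in the tumors.

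Counted gene by gene after filtering, most Ig genes that could be compared lay more than 2-fold apart between libraries. For each gene that reached 10 UMIs over the pair of libraries, 1 UMI was added to both counts, and the counts were scaled to library totals. At day 7, 126 of the 358 passed this minimum, 77 (61.1%) were more than 2-fold higher in L-fuc and 37 (29.4%) more than 2-fold lower, beside 12.6% and 2.23% of all genes tested. At day 21, 110 passed, 88 (80%) were higher and 12 (10.9%) lower, beside 5.28% and 2.51% of all genes. A gene that passed through one library alone had to differ, so these counts are descriptions. Of those tested, 18 were at 0 in control and 8 in L-fuc at day 7, and 35 and 3 at day 21.

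The median log2 ratio of the Ig genes tested was 2.20 at day 7 and 4.88 at day 21, or 4.23 with genes at 0 set to a floor of 3 UMIs in that library, beside -0.06 and 0.02 over all genes. Between control day 0 and control day 7, of 132 tested, 21 were more than 2-fold higher at day 7 (15.9%, beside 17.9% of all genes) and 91 lower (68.9%, beside 16.8%), with a median of -3.91. Between control day 7 and control day 21, of 90 tested, 23 were higher at day 21 (25.6%, beside 16.8%) and 44 lower (48.9%, beside 4.99%). Their median was -0.97, or -0.51 with the floor, and over all barcodes it was 2.65, so this comparison turned direction with the filters. The comparisons share control libraries.

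Genes that work with Ig were followed by 2 lists. Of 18 genes of the B cell receptor and the B lineage, 16 could be compared at day 7, where 3 were more than 2-fold higher in L-fuc and 0 lower, with a median log2 ratio of 0.78, beside 12.6% and 2.23% of all genes. At day 21, 9 of 17 were higher and 2 lower, with a median of 1.34, beside 5.28% and 2.51%. Cd79a, a signalling chain of the B cell receptor, had 2649, 305, 385, 146 and 509 filtered UMIs (levels of 189, 2.63, 4.62, 7.30 and 37.2 CPM). It was highest at day 0, where deep Ig-rich barcodes were 0.174% of the library's barcodes, beside 0.106% to 3.36% in the other libraries. From day 0 to control day 7, 0 of 17 genes were higher and 16 lower, beside 17.9% and 16.8% of all genes.

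The list of antibody secretion (19 genes) had 6 of 18 higher in L-fuc at day 7 and 5 of 18 at day 21, with 0 lower at either day. Of all genes, 12.6% and 5.28% were higher and 2.23% and 2.51% lower, so a count of 0 lower among 18 is no result about the list. Mzb1 had 732, 832, 2186, 248 and 2504 filtered UMIs, a log2 ratio of L-fuc to control of 1.87 at day 7 and 3.88 at day 21. Derl3 had 11, 68, 133, 54 and 176, with log2 ratios of 1.43 and 2.23. Xbp1, which macrophages and tumor cells also express, differed little, at -0.04 and 0.28. From day 0 to control day 7, 1 of 19 was higher and 9 lower (17.9% and 16.8% of all genes), and from control day 7 to control day 21, 7 of 18 were higher and 0 lower (16.8% and 4.99%). Iglc2, a lambda constant gene that the symbol rule leaves out, had 1349, 450, 727, 174 and 1210 UMIs.

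T cells and tumor cells gave the background of these genes. T cells, with at least 2 UMIs of Cd3e, Cd3d and Cd3g, should make no antibody, but this rule does not remove barcodes that also hold B cell RNA. Yet 47.2%, 54.3%, 57.6%, 59.1% and 97.8% of 485, 1525, 1845, 66 and 46 such filtered barcodes had an Ig UMI. Tumor barcodes, with Sox10 and no Ptprc, had one in 2.22%, 41.2%, 40.2%, 47.6% and 98.5% of 270, 9137, 3099, 498 and 323. Median depths were 4789, 4441, 5047, 4949 and 9616 UMIs in T cells and 16760, 7332, 13572, 21792 and 22709 in tumor cells. With each barcode thinned to 1000 UMIs, which left out 1 to 41 T cell and 7 to 135 tumor barcodes per library, the shares were 22.5%, 20.5%, 20.7%, 30.8% and 68.9% in T cells and 0.380%, 10.0%, 8.27%, 11.9% and 42.8% in tumor cells. These shares include Ig-rich barcodes, without which they were 43.2% in T cells and 36.6% in tumor cells at L-fuc day 21. Shares of barcodes with an Ig UMI at or below these, taken without Ig-rich barcodes, are thus read as background, except the T cell share at control day 0. There the 2 classes were far apart after thinning, at 22.5% in T cells and 0.380% in tumor cells. The part of B cell RNA in that T cell share is not reported here.

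As levels, T cells had 975, 1831, 3118, 254 and 17320 CPM of Ig genes, and 975, 182, 217, 254 and 980 without Ig-rich barcodes. Tumor cells had 1.74, 359, 69.0, 61.6 and 1698, and 1.74, 91.2, 69.0, 61.6 and 326 without them. Outside Ig-rich barcodes, L-fuc day 21 was thus highest in tumor cells and, at day 21, higher than control in both classes. At control day 0 no T cell barcode was Ig-rich, so leaving such barcodes out could not change the T cell level of 975. Tumor cells there stood at 1.74, so far below that the T cell level is not taken as background.

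The leading V segment of the background differed between most libraries. It was taken over all deposited barcodes outside the Ig-rich ones, whereas the levels above are after filtering. In tumor barcodes the most frequent V segment was Igkv8-19 at control day 7 (12.4% of their Ig UMIs) and Igkv12-41 at L-fuc day 7 (9.74%). At day 21 it was Igkv3-4 in control (36.1%) and Igkv1-110 in L-fuc (10.0%). In T cells of the same libraries, in that order, it was Igkv8-19 (8.57%), Igkv1-110 (5.45%), Igkv3-4 (28.3%) and Igkv12-44 (17.0%). Igkv1-110 thus led in a class of both L-fuc libraries. It also led in T cells at control day 0 (6.16%), whose level is not taken as background. Day 0 tumor barcodes had 8 Ig UMIs in all.

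The receptor libraries bore on T cells alone. They listed 818, 1913, 2148, 103 and 43 contigs, of which 0 of 5025 were assigned to an Ig chain. A T cell receptor contig was found for 13 of the 340 Ig-rich barcodes.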

How the data were processed

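Single-cell RNA was measured in 5 pooled libraries and T cell receptor contigs in 5 more. The authors deposited counts of UMIs per gene and barcode, made with Cell Ranger 3.0 and mm10 per the processing notes, whereas the file headers name Cell Ranger 7.1.0. Receptor files hold deposited UMI counts per contig. The members and lists were chosen with earlier results of these data known. Named genes were the constant genes, Jchain, the leading V segments over all and in each library, and the 2 lists. Other V segments named in pairs were chosen after their values were seen.

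Libraries held 14439185 to 119047810 UMIs. Member UMIs were divided by all UMIs, over all and over filtered barcodes, with exact 95% Poisson, Clopper-Pearson or conditional ratio intervals. Doublets were not removed, and Scrublet (scanpy 1.11.5) was an alternative. It marked 0.923% to 9.54% of barcodes, by an automatic threshold at control day 7 and by the expected share elsewhere. The ratio script was tested on simulated data. Intervals were computed with scipy 1.17.1 in Python 3.11.15, and sequences were read with samtools 1.23.1. Symbols Ighv1-13 and Ighv5-8 each occurred on 2 gene rows, and no column was left unused. Some items, and the barcode group that rests on them, are not reported here.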

Additional observations from a re-analysis of the deposited data

Results flagged for a closer look

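Of 64 named genes, 14 had a log2 ratio of L-fuc to control of opposite sign at day 7 and day 21 after filtering, each with a counting interval clear of 0. The difference between the days was not tested, since each group is 1 library.

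Among Ig genes, Ighm, the IgM constant gene, stood at -0.294 at day 7 and 2.90 at day 21, and Ighg3, an IgG constant gene, at -0.718 and 2.40. Over all barcodes Ighm stood at 0.14 at day 7, in the direction of day 21, and Ighg3 at 0.31 at day 21 with an interval of the ratio that holds 1. Ighv3-6 stood at 9.04 (9422 against 24 UMIs) and -1.95 (2 against 16). Igkv13-84 stood at -8.34 (0 against 451 UMIs) and 12.7 (8906 against 1), Igkv6-32 at -8.52 (8 against 4595) and 5.48 (60 against 1), and Igkv3-2 at 12.1 (6361 against 1) and -4.92 (35 against 1589). For V segments with 0 to 3 UMIs on one side the size of the ratio has no firm value. Several of the high counts came mainly from 1 barcode. It held 99.2% for Ighv3-6 at L-fuc day 7, 99.1% for Igkv6-32 at control day 7 and 95.5% for Igkv3-2 at control day 21. For Igkv13-84 at L-fuc day 21 it held 62.3%. These V segments were named because they led the series or a library, so wide gaps were partly built into the choice.

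Among the B lineage genes, Iglc1, a lambda constant gene, stood at -0.796 and 5.52, and Vpreb3 at 2.17 and -0.733. Over all barcodes Iglc1 stood at 0.01 and 3.64 and Vpreb3 at 2.03 and 0.35, so neither had opposite signs there. In the secretion list, Sdc1 stood at -0.122 and 0.778, Fkbp11 at -0.412 and 0.510, Creld2 at -0.246 and 0.681, and Txndc5 at -0.192 and 0.257. Pou2f2 stood at 0.919 and -0.150, and Slamf7 at 1.14 and -0.246. Over all barcodes these secretion genes kept their signs, with Pou2f2 at -0.05 and Slamf7 at -0.03 at day 21. Deep Ig-rich barcodes of all libraries together held 433, 585, 1787, 2387, 317 and 442 UMIs of these secretion genes, in the order given. Control day 7 alone had 2486, 3909, 8294, 11163, 1939 and 1638 over all barcodes. Most UMIs of these genes thus lay outside deep Ig-rich barcodes, and the signs do not describe antibody-secreting cells alone.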

How the results depend on the processing

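No paired analysis was possible because each group has 1 library. Ratios are given as L-fuc over control at day 7 (2.52 as reported), at day 21 (14.2), control day 7 over day 0 (0.626) and control day 21 over day 7 (1.22). Over all deposited barcodes they were 3.9, 4.58, 0.232 and 12.7, and without the complexity filter 3.97, 4.47, 0.235 and 13.1. With Scrublet-marked barcodes removed they were 2.59, 13.3, 0.941 and 1.15, and among barcodes with Ptprc 4.25, 11.1, 0.542 and 2. Without the top barcode of each library they were 2.36, 28.7, 0.792 and 0.608, so the last changed direction. Without barcodes of at least 5% Ig UMIs they were 1.21, 3.94, 0.183 and 1.57. A minimum of 500 genes gave 2.55 at day 7 and 1.19 for control day 21 over day 7, and a mitochondrial limit of 20% gave 2.56 and 1.25. Alternatives chosen after seeing the data gave, over all barcodes, 4.05, 5.19, 0.347 and 12.1 without the top barcodes and 1.32, 3.37, 0.191 and 1.85 without those of at least 5% Ig UMIs, and 11.4 at day 21 without the Igkv12-89 barcodes. Both L-fuc ratios stayed above 1 and control day 7 over day 0 below 1 under these alternatives. The cause was not tested, other than that each alternative removes or adds the barcodes it names. Counts of Ig genes past 2-fold with no UMI minimum were 157 at day 21 (100 as reported), 171 for control day 7 over day 0 (112) and 115 for control day 21 over day 7 (67). With no minimum, genes with very few UMIs can be called, and the share of all genes was not computed. The larger counts are thus no result about Ig genes. For control day 21 over day 7 the count over all barcodes was 103 of 113 tested, beside 17.2% of all genes higher and 4.76% lower. Of the Ig genes past 2-fold in that comparison, 34.3% were higher as reported, 61.7% with no minimum and 65.0% over all barcodes.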
